A study of Mus musculus with 8 samples.

Results

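The genes described here encode the elastic fibre and the enzymes that crosslink it: elastin (Eln), fibrillin-1 (Fbn1), the fibulins Fbln1, Fbln2 and Fbln5, the microfibril-associated glycoproteins Mfap4 and Mfap5, lysyl oxidase (Lox) and lysyl oxidase-like 1 (Loxl1). They were chosen by name, and all probe sets that the array's annotation assigns to one of them alone were taken. Of the 9 listed genes, 8 had such a probe set, 13 probe sets in all, out of 12393 genes with a probe set of their own. No probe set in the annotation used here was assigned to Fbn1, which was therefore not analysed here. The hearts were those of MRL/MpJ and C57BL/6 males aged 2 to 4 months, and the RNA was total RNA of the left ventricle. For each strain there was 1 array on day 3, 1 on day 30 and 1 on day 60 after ligation of the LAD, the coronary artery that feeds the front wall of the left ventricle, and 1 array of an untreated heart, so 6 ligated arrays stood against 2 untreated arrays. The controls were labelled untreated, not sham-operated, and the labels do not say whether an array held the RNA of a single mouse or of a pool. MRL/MpJ is an inbred strain studied for its wound repair, and C57BL/6 is the common laboratory strain it was set against.

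Elastic fibres give arteries, lung and heart valves their recoil. Cells secrete tropoelastin, the Eln product, onto a scaffold of fibrillin microfibrils, fibulin-5 helps to bring tropoelastin and the crosslinking enzymes together there, and the copper enzymes of the lysyl oxidase family then join neighbouring chains into an insoluble core. In the heart wall these proteins are made mainly by fibroblasts and by the smooth muscle of vessels, and lysyl oxidase also crosslinks the fibrillar collagens of a scar.

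The DNA just before the starts of 2 fibulin genes is shown for context. With 1 chromosome left out of the search, 4 of the 9 listed genes had a promoter window in the RefSeq table (build GRCm38.p6). Of these, Fbln5 and Fbln1 are printed because their windows lie at the gene's start. Each is given as the 250 bases before the start in the 5′ to 3′ direction of the gene. The Fbln5 stretch, chr12:101819120-101819369 on the minus strand, has 65.2% G and C, and its capitals mark 2 matches to the GC box GGGCGG, the letters that Sp1-type factors bind, here both read on the opposite strand. The Fbln1 stretch, chr15:85205699-85205948 on the plus strand, has 46.4% G and C, and its capitals mark 1 match to the letters CAGACA, a form of the site that SMAD proteins bind, also on the opposite strand.
Fbln5: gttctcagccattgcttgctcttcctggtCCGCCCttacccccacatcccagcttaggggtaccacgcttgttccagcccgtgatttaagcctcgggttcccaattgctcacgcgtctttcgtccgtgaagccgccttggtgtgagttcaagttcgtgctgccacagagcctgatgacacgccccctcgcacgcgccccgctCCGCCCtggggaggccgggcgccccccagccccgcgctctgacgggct
Fbln1: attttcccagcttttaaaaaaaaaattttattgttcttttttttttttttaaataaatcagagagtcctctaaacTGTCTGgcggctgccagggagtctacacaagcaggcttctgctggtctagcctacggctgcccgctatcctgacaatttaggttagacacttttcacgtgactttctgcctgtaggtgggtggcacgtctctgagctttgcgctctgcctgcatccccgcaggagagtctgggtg
The median G and C content over all 32851 windows was 52.4%, so these stretches lay on either side of it. A GC box stood in 32.7% of all windows of this length and the SMAD letters in 17.1%, searched on both strands with no overlap between the matches shown. The TATA box TATAAA, found in 12.4% of all windows, the AP-1 site TGANTCA, found in 6.7%, and the MCAT element CATTCC, found in 12.6%, had no match in either stretch. These are matches of letters only, and the arrays did not measure binding.

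On every array the signal is the deposited MAS5 value, which was on a linear scale and scaled to a common level per array. Differences are log2 differences of signal plus 28.6 (the offset, set at percentile 20 of the deposited signals), and a gene was kept when its signal reached 121, the median of all values, on at least 2 of the 8 arrays, which left 8195 genes. With 1 array per strain and day, limma drew its error from how far the strains disagreed across time points (3 residual degrees of freedom), so its p-values measure the spread between these arrays, which may be technical. The C57BL/6 day 30 array stood apart: its correlation with the others was 0.844 to 0.877, whereas the other 7 arrays correlated among themselves at 0.884 to 0.948, and its highest signal was 75193 while no other array exceeded 38118. The fitted values that it moved most are therefore given with and without it. Heart muscle was seen on all arrays: the summed signal of 10 cardiomyocyte markers was 175756 to 337866 on ligated and 184744 to 206183 on untreated arrays, the highest being the C57BL/6 day 30 array. That sum was not used to tell ventricle from atrium. The 6 atrial markers summed to 10336 to 52639 on ligated and 4920 to 7550 on untreated arrays. The natriuretic peptide gene Nppa made up most of that sum on every array. On the MRL/MpJ day 3 and C57BL/6 day 60 arrays it was nearly all of it (28354.5 of 28962 and 17996.2 of 18536). Myl7 read 97.6 on day 3, 3899.3 on day 30 and 2967.3 on day 60 in MRL/MpJ against 532.5 untreated, and 1077.9, 3371.6 and 11.9 in C57BL/6 against 442.3 untreated. Sln was likewise low on the MRL/MpJ day 3 array, at 6.1, and the C57BL/6 day 60 array, at 6.7, and between 858.4 and 3254.2 on the other ligated arrays. The part of atrial tissue in the results was not tested.

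The main probe set of a gene is its brightest. On it, all 8 measured elastic fibre genes had more signal on every ligated array than on either untreated one. Their log2 differences between ligated and untreated arrays ran between 0.76 (Fbln2) and 3.02 (Mfap4) with a median of 1.47, while the median of all genes was -0.03. All 8 lay above 0, as did 46.8% of all genes. None of the 8 passed limma's adjusted threshold of 0.05, which 0.183% of all genes passed upwards and 0.0122% downwards. Without the C57BL/6 day 3 array 4 of 8 passed (Eln, Mfap5, Lox and Loxl1) and so did 67 of all genes, and without the MRL/MpJ day 30 array 1 of 8 (Eln) and 68 of all genes, against 16 of all genes with every array. At an unadjusted p under 0.05, 8 of 8 were higher, against 6.27% of all genes, and without the MRL/MpJ untreated array 4 of 8, against 3.59%. Groups without overlap, with all 6 ligated arrays above both untreated arrays, were seen for 8 of 8, against 6.71% of all genes, and without the C57BL/6 day 30 array for 8 of 8, against 8.32%. Mfap4 passed the filter on low signal only through ligated arrays and so had to differ, and its place in these counts is no support. The other 7 genes reached the filter signal in untreated hearts too. With every array in the fit, all 7 lay above 0, were higher at an unadjusted p under 0.05 by limma and had groups without overlap. In bulk tissue, more cells of a type and more RNA per cell cannot be told apart.

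**Figure D1:**
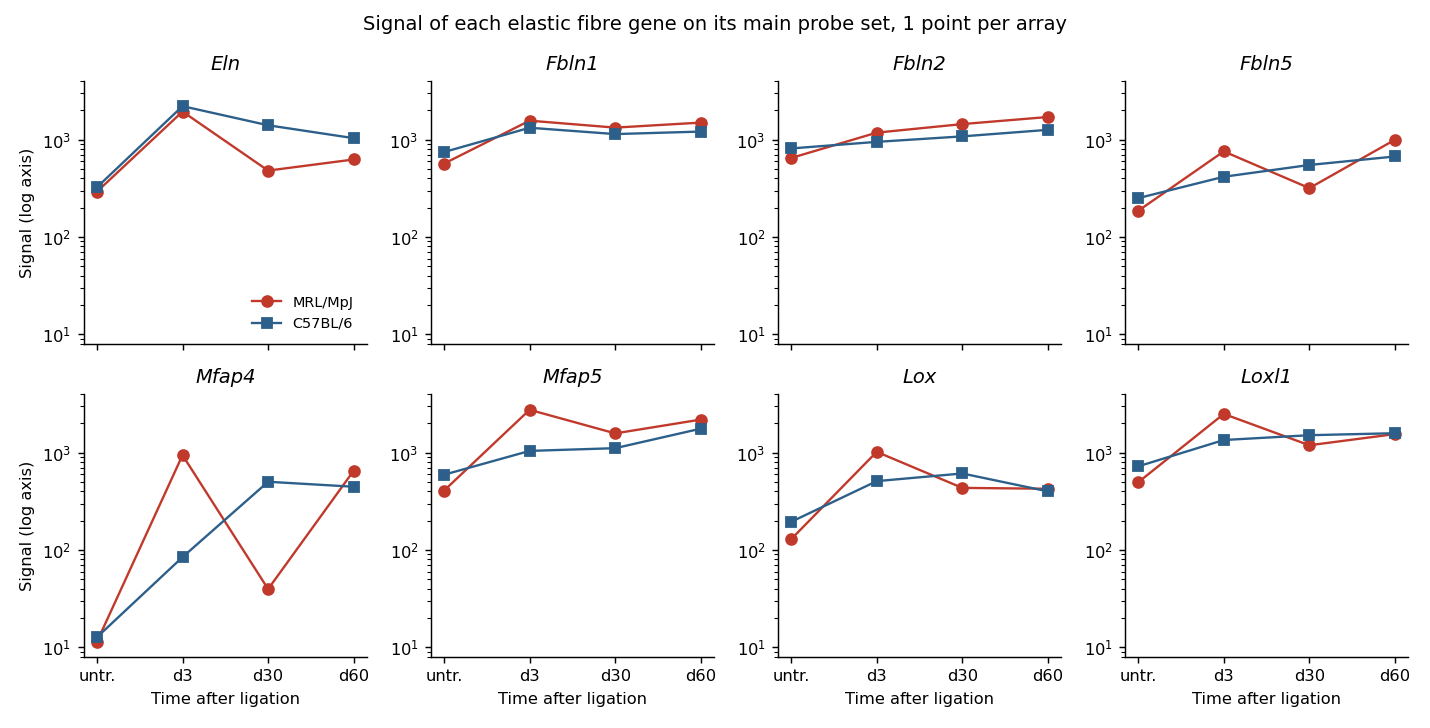
Signal of each elastic fibre gene on its main probe set (log axis) in untreated hearts and 3, 30 and 60 days after ligation, 1 point per array, MRL/MpJ in red circles and C57BL/6 in blue squares, lines joining the arrays of a strain. Every ligated point lies above both untreated points of its gene. The MRL/MpJ line peaks on day 3 for Mfap4, Mfap5, Lox and Loxl1, and both lines peak there for Eln and Fbln1.

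Elastin itself was highest on day 3 in both strains, as was Fbln1 on its main probe set only, 2 of 8 genes against 6.03% of all genes. In MRL/MpJ hearts the main Eln probe set, 1420855_at, read 292.1 untreated, 1943.1 on day 3, 480.8 on day 30 and 625.4 on day 60. In C57BL/6 hearts it read 323.8 untreated, 2208.4 on day 3, 1404.8 on day 30 and 1035.2 on day 60. On this main probe set only, the strains lay close together before ligation and on day 3, and apart on days 30 and 60, where MRL/MpJ was lower. The day 3 difference from untreated was 2.64 on the log2 scale (SE 0.36), 6.15-fold in MRL/MpJ and 6.35-fold in C57BL/6, with an unadjusted p of 9.23e-05 and an adjusted p of 0.0749 by limma. Over all ligated arrays it was 1.77 (SE 0.29, adjusted p 0.0679). Day 30 lay below day 3 by a log2 difference of -1.3 (SE 0.36, unadjusted p 0.00704, adjusted p 0.752), which was -0.72 when the MRL/MpJ day 30 array was left out and -1.87 when the C57BL/6 day 30 array was. Day 60 lay below day 3 by -1.33 (unadjusted p 0.00614, adjusted p 0.739). Eln was the only member lower at an unadjusted p under 0.05 in these comparisons, 1 of 8 in each, against 3.60% of all genes for day 30 and 4.33% for day 60. The day 30 difference from untreated was 1.35 with both day 30 arrays, 0.77 without the C57BL/6 one and 1.92 without the MRL/MpJ one, where the adjusted p was 0.0451 (0.0451 to 0.923 over its alternatives).

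Of the microfibril glycoproteins, Mfap4 had the widest range of the 8 genes, its highest signal being 82.73 times its lowest, while that ratio was 6.77 for Mfap5. Mfap4, a fibrinogen-domain protein that binds tropoelastin and fibrillin in human tissue, read 11.4 untreated, 943.1 on day 3, 39.7 on day 30 and 653.1 on day 60 in MRL/MpJ hearts. In C57BL/6 hearts it read 12.7 untreated, 84.5 on day 3, 502.5 on day 30 and 446.7 on day 60. Both untreated values lay below the offset, so the log2 differences understate the ratio of signals. The 2 strains took opposite orders on days 3 and 30: MRL/MpJ was far above C57BL/6 on day 3 and far below it on day 30. The residual SD was accordingly 1.76 on the log2 scale, the largest among the 8 genes, and the ligated difference of 3.02 had a 95% interval of 0.89 to 5.15 (adjusted p 0.303). Single arrays decided the day values: the day 3 difference of 3.03 became 1.06 with the MRL/MpJ array of that day left out and 4.99 with the C57BL/6 one left out, and on day 30 the difference of 2.23 became 0.15 when the C57BL/6 array was left out and 4.3 when the MRL/MpJ one was. Day 60, with 3.81, was where both strains had high values.

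Mfap5, also called MAGP-2, binds fibrillin microfibrils. On MRL/MpJ arrays its main probe set read 407.3 untreated, 2757.4 on day 3, 1577.6 on day 30 and 2187.7 on day 60. On C57BL/6 arrays the readings were 593.3 untreated, 1042.7 on day 3, 1112.2 on day 30 and 1765 on day 60. MRL/MpJ began lower than C57BL/6 and was higher at all 3 times after ligation. The ligated difference was 1.68 (SE 0.33, adjusted p 0.103), or 1.06 without the MRL/MpJ and 2.3 without the C57BL/6 untreated array, and the day 3 fold was 6.39 in MRL/MpJ and 1.72 in C57BL/6.

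The 3 fibulins had different time courses. Fbln5, which binds tropoelastin and is needed for elastic fibre assembly in mice, read 185.6 untreated, 757.4 on day 3, 317.6 on day 30 and 998.1 on day 60 in MRL/MpJ, and 250.6 untreated, 415.6 on day 3, 549.3 on day 30 and 671.3 on day 60 in C57BL/6. Both strains were highest on day 60, as for Fbln2, 2 of 8 genes against 7.30% of all genes. The day 60 difference from untreated was 1.79 (SE 0.4, adjusted p 0.163). Day 60 exceeded day 30 by 0.92 for Fbln5 (unadjusted p 0.0497, adjusted p 0.609), the only member of 8 with an unadjusted p under 0.05 in that comparison, against 3.55% of all genes. That difference was 1.46 when the C57BL/6 day 30 array was left out and 0.39 when the MRL/MpJ day 30 array was.

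Fbln2, a fibulin of vessel walls and of the developing and remodelling heart, read 647.5 untreated, 1179.8 on day 3, 1444.7 on day 30 and 1708.3 on day 60 in MRL/MpJ. In C57BL/6 it read 811.9 untreated, 948.7 on day 3, 1080.2 on day 30 and 1261 on day 60. It was higher at each later time point in both strains, the only gene of the 8 with that order, which 0.476% of all genes had. The steps were small: its ligated difference was 0.76 (SE 0.22, adjusted p 0.28), and its day 3 difference of 0.53 had an unadjusted p of 0.0886. With the MRL/MpJ untreated array left out these were 0.41 and 0.18, and with the C57BL/6 untreated array left out 1.11 and 0.88.

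Fbln1, a fibulin of elastic fibres and basement membranes, read 567 untreated, 1566.6 on day 3, 1329 on day 30 and 1496.6 on day 60 in MRL/MpJ hearts on its main probe set. The C57BL/6 readings were 745.2 untreated, 1324.7 on day 3, 1140.7 on day 30 and 1210 on day 60. Its 3 times after ligation stayed close together, with differences from untreated of 1.11, 0.89 and 1.02. Its ligated difference of 1.01 had the smallest residual SD of the 8, 0.22 (SE 0.21, adjusted p 0.122).

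The crosslinking enzymes were both highest on the MRL/MpJ day 3 array, as were Fbln1, Mfap4 and Mfap5, 5 of 8 genes against 14.2% of all genes. Lox read 128.9 untreated, 1019.4 on day 3, 434.8 on day 30 and 425.9 on day 60 in MRL/MpJ, and 194.6 untreated, 509.9 on day 3, 611.4 on day 30 and 400.3 on day 60 in C57BL/6. Its ligated difference was 1.59 (SE 0.31, adjusted p 0.0906) and its day 3 difference 2 (SE 0.37, adjusted p 0.183). Loxl1, which also acts on elastin in mice, read 496 untreated, 2500.1 on day 3, 1191.1 on day 30 and 1552 on day 60 in MRL/MpJ. Its C57BL/6 values were 723.2 untreated, 1348.7 on day 3, 1511.6 on day 30 and 1584.5 on day 60. The ligated difference of Loxl1 was 1.35 (SE 0.29, adjusted p 0.122). For both enzymes the strains stood close together by day 60 on the main probe sets. The second Lox probe set, 1448228_at, read 291.6 in MRL/MpJ and 408.4 in C57BL/6 on day 60. On day 3 the main probe set's fold over the untreated array was 6.65 in MRL/MpJ and 2.41 in C57BL/6 for Lox. For Loxl1 it was 4.82 in MRL/MpJ and 1.83 in C57BL/6.

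None of the 8 passed the adjusted threshold on any day, a threshold that 0% of all genes passed upwards on day 3, 0.0122% on day 30 and 0.0366% on day 60. By day, 7 of 8 genes were higher on day 3 at an unadjusted p under 0.05, against 4.54% of all genes, 6 of 8 on day 30, against 5.77%, and 8 of 8 on day 60, against 6.16%. The median difference was 1.65 on day 3, 1.24 on day 30 and 1.33 on day 60, while the medians of all genes lay at 0.02, -0.01 and -0.06. Without the C57BL/6 day 30 array the day 30 median was 0.9 and 5 of 8 were higher at that threshold, against 4.06% of all genes. Without the MRL/MpJ day 3 array the day 3 differences included 0.77 for Fbln5, 0.99 for Loxl1 and 1.09 for Mfap5, against 1.27, 1.57 and 1.73 with it. These comparisons share the untreated arrays, and the 8 genes include Mfap4, which passed the filter only through ligated arrays. At a limit of 2-fold in both strains, without a test, 3 of 8 genes passed on day 3 (Eln, Mfap4 and Lox; 1.04% of all genes), 2 of 8 on day 30 (Lox and Loxl1; 1.34%) and 5 of 8 on day 60 (1.84%). Within MRL/MpJ, 7 of 8 were at least 2-fold above the untreated array on day 3 (4.98% of all genes), 5 on day 30 (3.09%) and 8 on day 60 (4.56%). Within C57BL/6 these counts were 3 on day 3 (2.43% of all genes), 5 on day 30 (7.91%) and 5 on day 60 (3.64%). The median difference on day 3 was 2.45 in MRL/MpJ and 0.84 in C57BL/6, and on day 60 it was 1.56 in MRL/MpJ and 1.22 in C57BL/6.

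**Figure D2:**
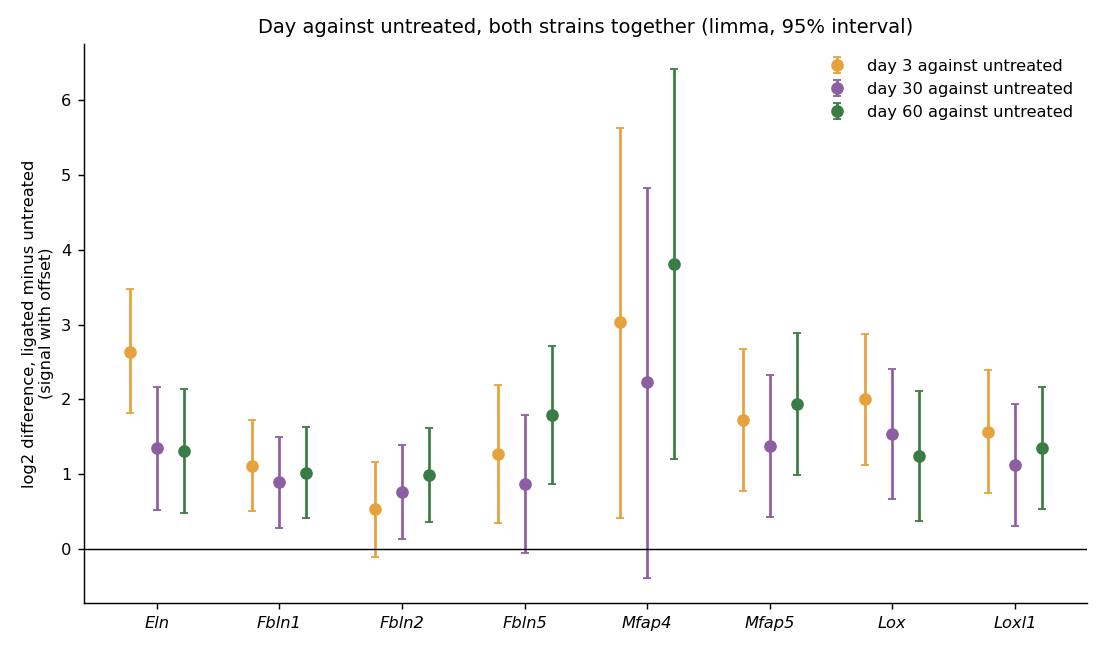
Log2 difference from untreated hearts of each elastic fibre gene on day 3 (orange), day 30 (purple) and day 60 (green), both strains in 1 limma fit, with 95% intervals. Eln is highest on day 3 at 2.64 and Fbln5 on day 60 at 1.79, and the intervals of Mfap4 are the widest.

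Between strains, the order of the arrays differed by time point. In the untreated pair all 8 were lower in MRL/MpJ, with log2 differences (MRL/MpJ minus C57BL/6) between -0.52 and -0.05, against 49.5% of all genes lower, although both Mfap4 values lay under the offset. In the day 3 pair 7 of 8 were higher in MRL/MpJ, against 53.2% of all genes, with 3.1 for Mfap4, 1.38 for Mfap5, 0.96 for Lox, 0.88 for Loxl1, 0.82 for Fbln5, 0.31 for Fbln2 and 0.24 for Fbln1, and Eln lay at -0.18. The same 7 genes were lower untreated and higher on day 3, an order that 24.1% of all genes had. On day 30, 3 of 8 were higher in MRL/MpJ (44.2% of all genes), and on day 60, 6 of 8 (48.7%). Fbln1, Fbln2 and Mfap5 were lower on the untreated MRL/MpJ array and higher in MRL/MpJ at all 3 times after ligation, 3 of 8 genes against 4.72% of all genes. Each of these is 1 array against 1, and under quantile normalization and median centring none of the 32 pair differences took the other sign.

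Whether the day 3 strain difference departed from that of the other pairs was tested by an interaction term with 2 residual degrees of freedom. It was 3.93 for Mfap4 (SE 1.2, unadjusted p 0.0129), 1.28 for Mfap5 (SE 0.52, p 0.0405), 1.26 for Lox (SE 0.45, p 0.0254) and 1.17 for Loxl1 (SE 0.43, p 0.028). These 4 of 8 were past an unadjusted 0.05, against 3.27% of all genes, and the adjusted p-values of the 8 lay between 0.931 and 0.968, so the departure did not pass after adjustment over all genes. Without the C57BL/6 day 30 array, with 1 residual degree of freedom, it was 2.87 for Mfap4, 1.48 for Mfap5, 1.17 for Lox and 1.15 for Loxl1, with adjusted p-values of 0.29 to 0.95 over the 8 genes. The term that set the ligated pairs against the untreated pair reached 1.24 for Mfap5 (SE 0.56, unadjusted p 0.0618), was past an unadjusted 0.05 upwards for 0 of 8 genes (82 of all 8195), and its adjusted p was 1 for all 8 genes. The C57BL/6 day 30 array moved this term. Without it the term was 1.86 for Mfap4 (0.27 with it), 1.07 for Fbln5 (0.59) and 1.03 for Lox (0.7). It was 1.35 for Mfap5 (1.24), 0.94 for Loxl1 (0.69), 0.68 for Fbln2 (0.7), 0.65 for Fbln1 (0.63) and -0.31 for Eln (-0.66). Beside the day 3 values, the summed signal of 12 fibroblast markers was 62832 on the MRL/MpJ array and 35030 on the C57BL/6 array. Matrix genes made up most of both sums, such as Col3a1 at 16636.2 on the MRL/MpJ and 8957.2 on the C57BL/6 array. Of the markers that are not matrix genes, Tcf21 (380 and 212.5), Pdgfra (228.3 and 147) and Thy1 (362.3 and 315.2) were higher in MRL/MpJ. Gsn (6077 and 6267.9), Dpep1 (375.4 and 493.5) and Ddr2 (164.3 and 171.7) were lower in MRL/MpJ. The macrophage markers summed to 8240 on the MRL/MpJ and 7152 on the C57BL/6 array. The part of these cell types in the strain difference was not tested.

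Averaged over the 4 pairs, Eln was the one gene with a strain difference past an unadjusted 0.05. It was lower in MRL/MpJ in 4 of 4 pairs, which 9.19% of all genes were, by a mean log2 difference of -0.63 (SE 0.25, 95% interval -1.21 to -0.04, unadjusted p 0.0384, adjusted p 0.588). Genes lower at that unadjusted threshold made up 4.25% of all genes, and 0.0488% were higher and 0.171% lower at the adjusted one, none of them an elastic fibre gene. Without either day 30 array the Eln difference was -0.34. For the other 7 genes the mean difference lay between 0 (Loxl1) and 0.42 (Mfap5), and the intervals were wide: -0.58 to 0.58 for Loxl1, -0.6 to 0.63 for Lox and -1.69 to 2 for Mfap4.

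**Figure D3:**
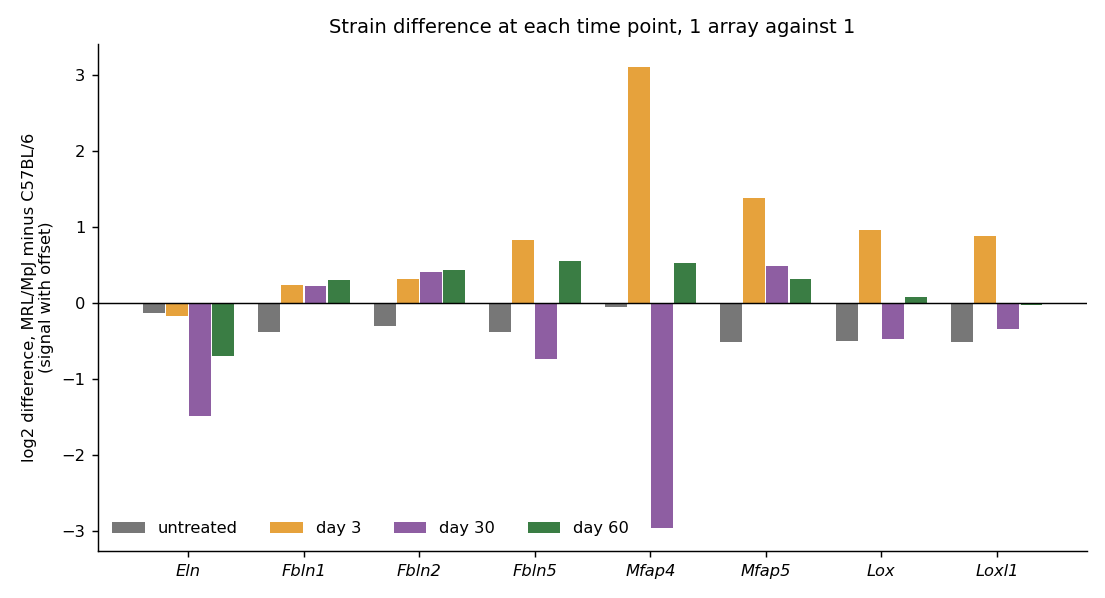
Log2 difference MRL/MpJ minus C57BL/6 for each elastic fibre gene in the untreated pair (grey) and the pairs of day 3 (orange), day 30 (purple) and day 60 (green), 1 array against 1 and so without error bars. All grey bars are below 0, 7 of 8 orange bars are above 0, and Mfap4 turns between 3.1 on day 3 and -2.96 on day 30.

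Where a gene had more than 1 probe set, these gave the same direction for ligated against untreated but not the same size. The second Eln probe set, 1420854_at, read 46.6 untreated, 602.6 on day 3, 38.6 on day 30 and 220.5 on day 60 in MRL/MpJ, and 191.2 untreated, 945.5 on day 3, 482 on day 30 and 234.9 on day 60 in C57BL/6. Here the strains lay apart before ligation and close together on day 60, unlike on the main probe set. This second probe set was the only one of the 13 whose ligated and untreated arrays overlapped. Its ligated difference was 1.38 against 1.77 on the main probe set, and its strain difference was -1.3 against -0.63. Fbln1 went the other way, with a ligated difference of 1.87 on 1422540_at against 1.01 on the main probe set. That probe set read 162.5 untreated, 965.5 on day 3, 500.2 on day 30 and 1046.2 on day 60 in MRL/MpJ, and 201.4 untreated, 588.3 on day 3, 729.6 on day 30 and 723.7 on day 60 in C57BL/6, so that its highest signal came on day 60 in MRL/MpJ and on day 30 in C57BL/6. The Mfap5 probe sets were close, at 1.68 and 1.56, and those of Lox gave 1.59, 2.12 and 0.85, the last from a probe set whose signal never passed 125.5. With each probe set fitted on its own, none of the 13 passed the adjusted threshold in any comparison. Few of all probe sets did: 28 for ligated against untreated and 2 for day 3 against untreated.

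**Figure D4:**
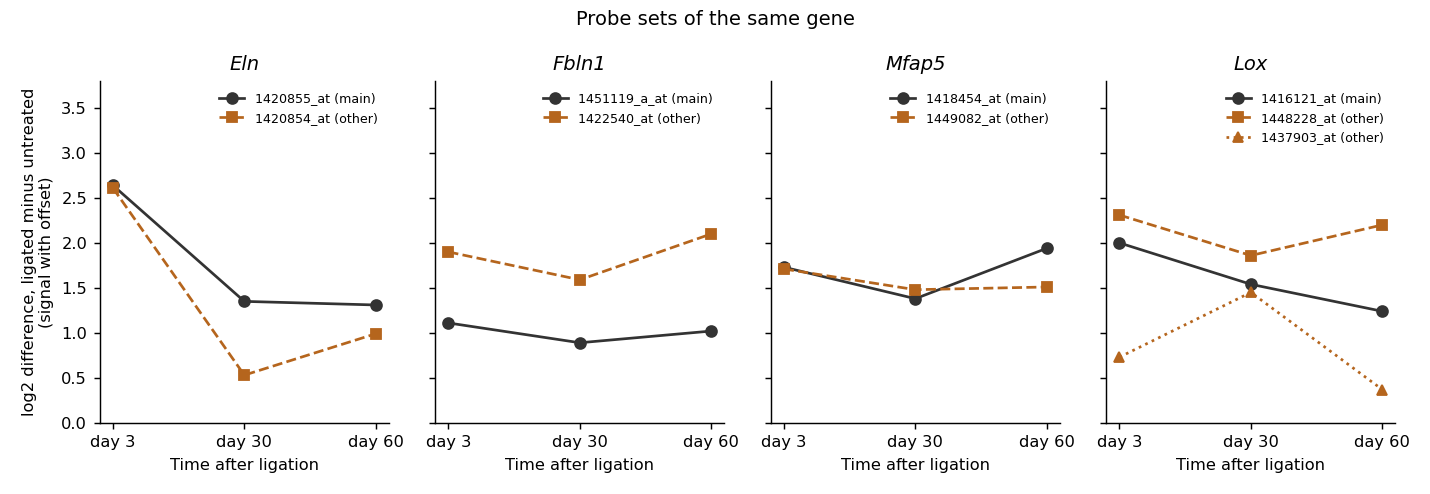
Log2 difference from untreated hearts on days 3, 30 and 60 for each probe set of Eln, Fbln1, Mfap5 and Lox, the main one in black circles and the others in orange. The lines coincide for Eln on day 3, part on day 30 (1.35 and 0.53), and stay apart for Fbln1, with 1.11 and 1.9 on day 3, 0.89 and 1.59 on day 30 and 1.02 and 2.1 on day 60.

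How alike the 8 genes were over the 8 arrays can be described by Pearson's r of their log2 values, a figure that all pairs owe in part to the 2 low untreated arrays they share. Lox and Loxl1 had an r of 0.96, Fbln5 and Mfap4 0.95, and Fbln1 and Mfap5 0.94. Eln and Fbln2 were the least alike at 0.28. Loxl1 was closest to the rest, with a mean r of 0.87, and Eln farthest, with 0.64. Averaged over the 8 genes, each centred on its own mean, the profile ran -1.35, 1.03, -0.21 and 0.6 for MRL/MpJ untreated and on days 3, 30 and 60, and -1, 0.1, 0.4 and 0.42 for C57BL/6. The genes outside the set most like this mean profile were Islr (r 0.987), Ccdc80 (0.981), Sfrp2 (0.979), Med10 (0.978) and Fn1 (0.975). For Eln alone they were Zup1 (0.932), Ccr6 (0.931), Tmem128, Clec4n and Anpep, and for Lox alone Arhgdib (0.997), Cd68 (0.989), Tyrobp (0.982), Aebp1 (0.971) and Col1a1 (0.97).

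Other genes of the elastic fibre and its turnover were taken from 4 lists and compared between ligated and untreated hearts, with all differences on the log2 scale. Of 29 other microfibril genes, 16 had a probe set of their own and 11 were kept, and none passed the adjusted threshold. At an unadjusted p under 0.05, 4 were higher, against 6.27% of all genes, and the median difference was 0.35. Ltbp2, a latent TGF-beta binding protein that associates with elastic fibres, had the largest difference, 2.04 (SE 0.47, adjusted p 0.156). It was followed by Ltbp3 at 0.86, Emilin1 at 0.79, Mfap2 at 0.75, Adamts10 at 0.43 and Mfap3 at 0.35.

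Of 16 crosslinking and maturation genes, 13 had a probe set of their own, 11 were kept and none passed. At an unadjusted p under 0.05, 4 were higher, against 6.27% of all genes, and the median was 0.25. The procollagen C-proteinase enhancers Pcolce and Pcolce2 lay at 0.92 and 0.85, the copper transporter Atp7a, which supplies lysyl oxidases, at 0.8, Loxl3 at 0.62 and the proteinase Bmp1, which activates lysyl oxidase, at 0.53. The collagen lysyl hydroxylase Plod1 lay at -0.32. The medians of these lists were thus closer to the median of all genes than that of the 8 genes.

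Among 14 receptors and partners, 12 were kept and 1 passed upwards, against 0.183% of all genes. Fibronectin, Fn1, an early scaffold of new matrix, rose by 2.15 on the log2 scale (SE 0.25, adjusted p 0.0351) and was higher on 6 of 6 ligated arrays. That call was lost without either untreated array, without the C57BL/6 day 30 array, or without either day 60 array, with an adjusted p of up to 0.496 and a range over all 17 alternatives of 0.00203 to 0.496. It read 442 untreated, 3678.6 on day 3, 1465.5 on day 30 and 2326.6 on day 60 in MRL/MpJ, and 558.1 untreated, 2275.6 on day 3, 1903.8 on day 30 and 2705.3 on day 60 in C57BL/6. Another 5 were higher at an unadjusted p under 0.05, which 6.27% of all genes were, and the list's median was 0.64. Lgals3, a galectin of macrophages, lay at 2.09 (adjusted p 0.0679), and the proteoglycans Bgn at 1.33, Dcn at 0.94 and Vcan at 0.69, with the integrin Itgav at 0.7.

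Of 18 elastin-degrading proteases and inhibitors, 17 had a probe set of their own, 12 were kept and none passed. At an unadjusted p under 0.05, 8 were higher, against 6.27% of all genes, and the median was 0.98. The 6 largest differences were those of the inhibitors Timp1 at 2.15 (adjusted p 0.0658), Timp2 at 1.17 and Timp3 at 1.12, and of the proteases Mmp2 at 1.46, Ctss at 1.42 and Ctsk at 1.39. Of the other kept genes, the protease Mmp14 lay at 0.83 and the inhibitors Cst3 and Slpi at 0.82 and 0.53. The protease Ctsl lay at 0.29, the protease Mmp9 at 0.05 and the inhibitor Timp4 at -0.5. The elastases Mmp12 and Elane, with Ctsg, Prtn3 and Mmp7, did not reach the filter signal on 2 arrays.

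Fibroblast and smooth muscle markers, of the cells that make elastic fibres, gave different values. Fibroblast markers summed to 32902 to 62832 on ligated and 15879 to 16937 on untreated arrays. Of these markers 12 of 12 had a difference above 0, against 46.8% of all genes, with a median of 0.91. Of these, Col1a1 (2.37), Col1a2 (2.36) and Col3a1 (1.87), the main collagens of a scar, rose, each with an adjusted p of 0.0337 (0.0019 to 0.478 over 17 alternatives) and on 6 of 6 ligated arrays, and these calls were lost without the same 5 arrays as for Fn1, while Pdgfra, a receptor of resting fibroblasts, lay at 0.26. The other fibroblast markers that are not matrix genes lay at 0.87 (Tcf21), 0.54 (Thy1), 0.33 (Ddr2), 0.31 (Gsn) and 0.14 (Dpep1). Smooth muscle markers summed to 6301 to 9691 on ligated and 6790 to 7759 on untreated arrays, which overlap, with a median difference of 0.05 over 8 genes. Macrophage markers summed to 6190 to 8240 on ligated and 3633 to 4797 on untreated arrays, with a median difference of 0.9, and endothelial markers to 3966 to 4714 on ligated and 4885 to 5579 on untreated arrays. Cartilage and tendon markers, which include matrix genes such as Comp, summed to 968 to 3944 on ligated and 475 to 585 on untreated arrays. Dcn and Lgals3 each stand in 2 of these lists. The part of these cell types in the elastic fibre values was not tested.

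**Figure D5:**
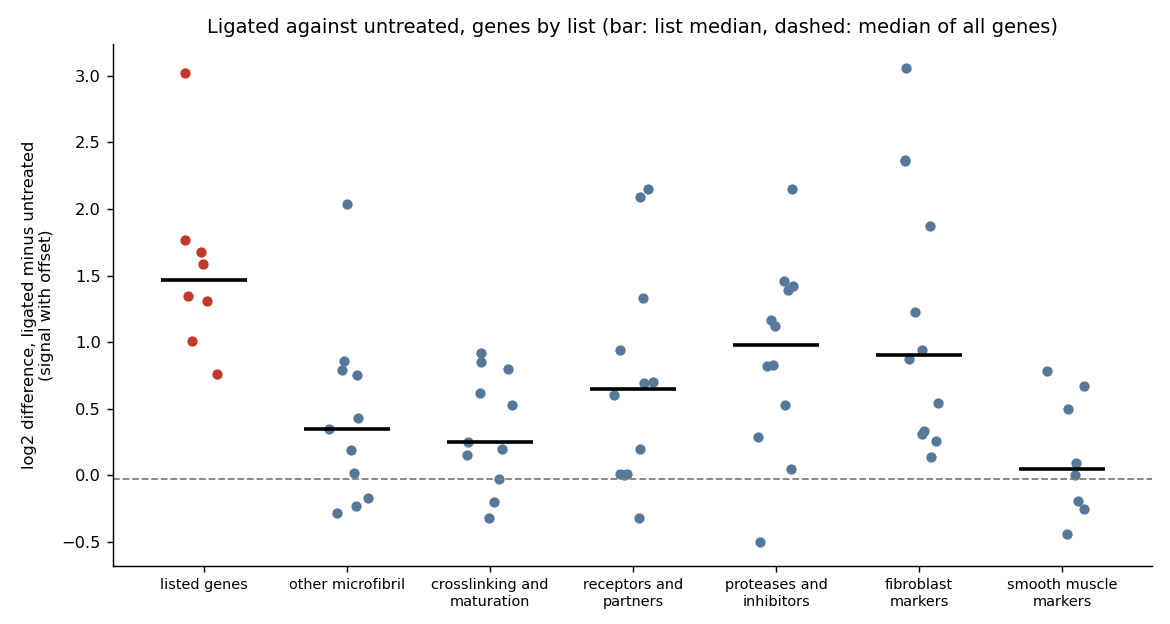
Log2 difference between ligated and untreated hearts for each kept gene of the elastic fibre set (red), 4 related lists and the fibroblast and smooth muscle markers (blue), with a bar at each list's median and a dashed line at the median of all genes, -0.03. The 8 red points lie between 0.76 and 3.02, and the list medians lie between 0.05 and 1.47.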

How the data were processed

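Total RNA of the left ventricle was measured on 8 Affymetrix arrays, 1 per strain and time point. The deposited values are linear signal intensity, which the authors computed with MAS5, as the submitters' processing notes name it. The genome build, detection calls and control probe sets were not used here. Probe sets were named from the platform annotation: of 22626, 20380 had 1 gene symbol, 691 several and 1555 none, and 0 symbols needed updating. Each gene was represented by its probe set with the highest mean log2 value. The log2 of signal plus offset was tested with limma 3.58.1 in R 4.3.3 (strain and time point as terms), with Benjamini-Hochberg adjustment over the 8195 genes kept. All 8 arrays entered every fit except those that left 1 out, and the script was tested on simulated data. The number of arrays limits the precision. The text names all listed genes, up to 6 genes per list with the largest ligated difference, called genes, and the 5 most alike profiles. Members, lists and tests were chosen with earlier results of these data known. Alternatives were another offset, filter, scaling, probe rule, variance trend, a one-factor fit, and each array left out.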

Additional observations from a re-analysis of the deposited data

Results flagged for a closer look

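Among 39 groups of arrays examined, 4 held an array far from the rest. A chance rate of about 1 in 20 would apply to replicates of 1 condition. Each of these 4 groups was the 6 ligated arrays, which differ in strain and day, so the count cannot be set against that rate. On the MRL/MpJ day 3 array the second Mfap5 probe set, 1449082_at, read 1519.6, while the other ligated arrays read 463.4 to 784.1. On the same array the main Lox probe set read 1019.4, against 400.3 to 611.4 on the others, and Loxl1 read 2500.1, against 1191.1 to 1584.5. The dim Lox probe set 1437903_at read 125.5 on the C57BL/6 day 30 array, the one that correlates least with all others, against 10.4 to 30 elsewhere after ligation. The second Eln probe set, 1420854_at, took opposite directions on day 30, with a log2 difference from untreated of -0.16 in MRL/MpJ and 1.22 in C57BL/6, a contrast that was not tested.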

How the results depend on the processing

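Every elastic fibre gene kept its direction for ligated against untreated hearts, and for each day against untreated, under all 17 alternatives in which it was fitted. The number of these genes past the adjusted threshold, 0 in the main setting, was less stable. For ligated against untreated it was 1 with a larger offset, 1 with a filter on the mean signal, 5 with an intensity trend, and 0 to 4 with each array left out. The 4 were Eln, Mfap5, Lox and Loxl1, without the C57BL/6 day 3 array, and an intensity trend added Fbln1 to them. For day 3 it was 1, 1 and 2 under the same 3 settings, for day 30 0 to 1 with each array left out, and for day 60 2 with an intensity trend (Fbln5 and Mfap5). Over all genes the count ranged from 0 to 104 for ligated against untreated (16 in the main setting), 0 to 26 for day 3 (0), 0 to 186 for day 30 (1), 0 to 75 for day 60 (3) and 7 to 43 for strain (18). With a larger offset, a filter on the mean signal and an intensity trend, 28, 43 and 104 of all genes passed for ligated against untreated. For day 3 against untreated, 12, 14 and 26 of all genes did. The C57BL/6 day 30 count of elastic fibre genes at 2-fold or more, 5 (7.91% of all genes), was 3 under median centring. No share of all genes is given here for that scaling. Between ligated days, and for strain, signs turned for several genes when 1 array was left out: Mfap4 on day 30 against day 3 ran between -2.88 and 1.28, and the strain median was -0.24 without either day 3 array against 0.08 with both. The day 3 median was 1.04 without the MRL/MpJ day 3 array, and the ligated median 1.04 without the MRL/MpJ untreated array. The cause was not tested. The calls of Fn1, Col1a1, Col1a2 and Col3a1 were also lost with no filter on dim genes and under quantile normalization, and that of Fn1 with the mean of all its probe sets, where its difference was 1.32. The count of genes without overlap, when repeated without the C57BL/6 day 30 array, was chosen after seeing the data, as were the counts at an unadjusted p and the strain-by-time terms with an array left out. The strain comparison already set the arrays of each time point against each other. Beyond that, no paired analysis was possible because the labels carry no replicate numbers shared between groups.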
